A study of Mus musculus with 36 samples.

Results

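Imprinted genes are expressed mainly from the copy inherited from 1 parent, and 10 of them with a known place in hematopoietic stem cells were followed here: *Meg3*, *Rian*, *Mirg*, *H19*, *Igf2*, *Igf2r*, *Ndn*, *Peg3*, *Grb10* and *Plagl1*. They were found by matching the Ensembl identifiers of the deposited count table to gene symbols, and all 10 symbols were present among its 38887 genes. Parental marks laid down by DNA methylation in the germ line set which copy is active, and clusters of neighbouring imprinted genes share such a control region. Many members act on growth: IGF2 promotes it, the receptor encoded by *Igf2r* removes IGF2, and GRB10 dampens signaling from the insulin and IGF receptors. In adult bone marrow (BM), the H19-Igf2 and Dlk1-Dio3 regions are known for their part in keeping long-term stem cells quiescent. The counts do not separate the parental copies, so the values below are levels per gene and not per allele.

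RNA was sequenced from 2 populations sorted by FACS out of the Lin- BM cells that carry Sca-1 and c-Kit, with 5000 cells per sample: long-term hematopoietic stem cells (LT-HSC), positive for CD150 and negative for CD48, and HPC-1, negative for CD150 and positive for CD48, a progenitor population that the labels name ST-HSC. The study asked how signaling through the IL-27 receptor (IL-27R) shapes stem and progenitor cells under the stress of angiotensin II (Ang II). All mice lacked apolipoprotein E and ate a Western diet, so no group represents a healthy animal. The *Il27ra* genotypes compared were intact (*Apoe*-/-), heterozygous (*Apoe*-/-*Il27ra*+/-) and knockout (KO, *Apoe*-/-*Il27ra*-/-), and mice of each received either PBS or Ang II by infusion over 2 weeks. In LT-HSC, PBS gave 1 intact, 3 heterozygous and 3 KO libraries, and Ang II gave 2 intact, 4 heterozygous and 4 KO libraries. In HPC-1, PBS gave 2 intact, 3 heterozygous and 3 KO libraries, and Ang II gave 3 intact, 4 heterozygous and 4 KO libraries. The receptor was missing in the whole animal of the KO groups, so a difference between genotypes is not limited to the sorted cells. The labels give no gender, age or batch, although the study's own model of these libraries included gender, and do not say which libraries come from the same animal, so p-values measure the spread between these libraries. The 36 libraries, 17 from LT-HSC and 19 from HPC-1, held 1980283 to 6861078 counts (median 3139364). Levels below are CPM, the counts of a gene per 1 M counted reads, with library totals scaled by the trimmed mean of M-values (TMM), and up to 3 counts in a library were taken as at or under the limit of detection, which covers counting error only.

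*Il27ra* was examined first as a check on the labels. In LT-HSC after PBS, *Il27ra* stood at 17.1 CPM in the intact library, 42.7, 24.1 and 25.5 in the heterozygous libraries and 9.41, 6.93 and 16.3 in the KO libraries. Under Ang II *Il27ra* was 42.8 and 51.7 in intact, 30.1, 25.4, 27.0 and 32.8 in heterozygous, and 16.3, 11.6, 16.1 and 19.3 in KO LT-HSC. Thus every KO library of LT-HSC lay below every heterozygous library, whereas the library labelled intact after PBS lay inside the KO range. This library enters no test below. In HPC-1 the genotypes overlapped: intact libraries held 8.25 and 11.9 CPM of *Il27ra* after PBS and 10.2, 8.87 and 6.06 after Ang II, and heterozygous ones 15.5, 11.04 and 9.95 after PBS and 5.45, 9.57, 14.3 and 16.4 after Ang II. KO libraries of HPC-1 held 6.69, 11.1 and 8.34 CPM after PBS and 6.62, 5.90, 4.63 and 9.03 after Ang II, so *Il27ra* does not check the genotype labels in HPC-1.

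The cell type labels were checked against markers. All 12 LT-HSC markers had the higher median in LT-HSC: the stem cell markers *Slamf1* (CD150), *Vwf* and *Hlf*, for example, had medians of 44.0, 445 and 462 CPM in LT-HSC and 1.91, 3.76 and 119 CPM in HPC-1. All 8 markers of HPC-1 and multipotent progenitors had the higher median in HPC-1, with *Cd48* at 61.9 CPM in HPC-1 and 0.485 CPM in LT-HSC. Summed per library, LT-HSC markers came to 322–2752 CPM in LT-HSC (median 2225) and 142–426 CPM in HPC-1 (median 258), with *Hlf* the most abundant. Progenitor markers came to 129–1872 CPM in LT-HSC (median 292) and 1057–2599.9 CPM in HPC-1 (median 1644), with *Cd34* the most abundant. The gate markers *Kit* and *Ly6a* (Sca-1) were present in every library, and *Kit* had medians of 867 CPM in LT-HSC and 689.9 CPM in HPC-1.

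Some LT-HSC libraries stood apart. In the library labelled PBS KO LT-HSC 2, LT-HSC markers summed to 322 CPM and progenitor markers to 1872 CPM, with *Cd48* at 62.5 CPM and the myeloid granule gene *Mpo* at 3517 CPM, so it lay among the HPC-1 libraries on both sums. In Ang II KO LT-HSC 2, LT-HSC markers summed to 1146 CPM, the lowest of the other LT-HSC libraries, while 9 markers of mature myeloid cells summed to 8165 CPM (*S100a9* 2179, *Ngp* 2111 and *Ltf* 1592 CPM). The same myeloid list came to 3721 CPM in PBS KO LT-HSC 2, 1312 in PBS KO LT-HSC 3, 4.40–73.3 in the other LT-HSC libraries and 2270.5–6601 in HPC-1, where *Mpo* was the most abundant. Erythroid markers (6 genes, led by *Hbb-bs*) summed to 1660.1 CPM in Ang II KO LT-HSC 2 and 1333 in PBS KO LT-HSC 3. Their medians were 49.1 CPM over LT-HSC and 35.3 CPM over HPC-1. Lymphoid markers (6 genes, led by *Ighm*) had median sums of 5.82 CPM in LT-HSC and 135 CPM in HPC-1. Member calls are given with and without these libraries wherever leaving out 1 of them changed a count.

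**Figure D1:**
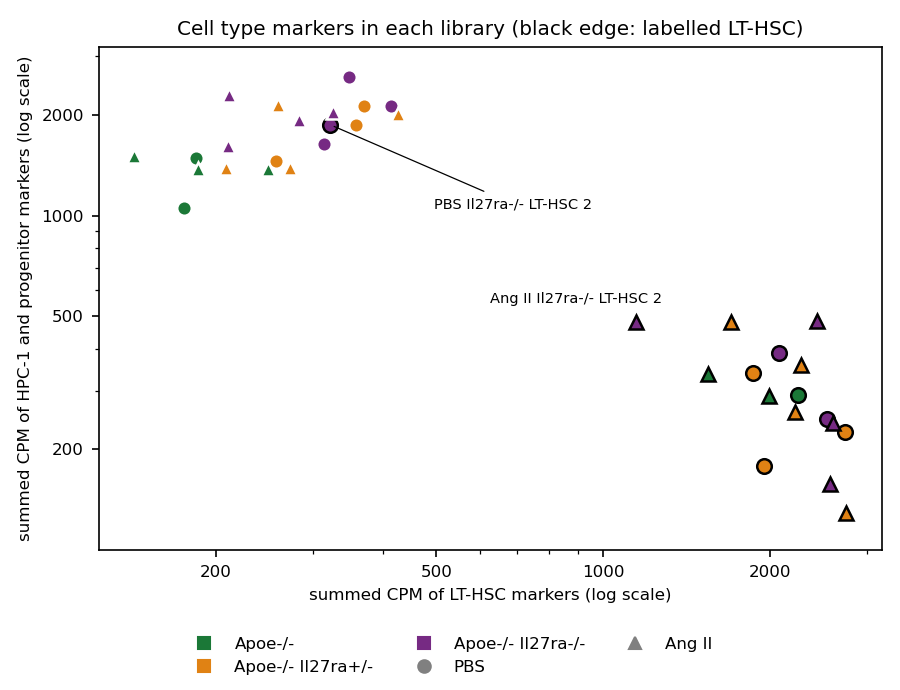
Summed CPM of the LT-HSC markers (x axis, log scale) and of the HPC-1 and multipotent progenitor markers (y axis, log scale) in each of the 36 libraries; colour marks the genotype, shape the infusion and a black edge the LT-HSC label. PBS KO LT-HSC 2, at 322 and 1872 CPM, lies among the HPC-1 libraries, and Ang II KO LT-HSC 2 has the lowest LT-HSC marker sum of the others (1146 CPM).

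All 10 imprinted genes were higher in LT-HSC than in HPC-1. Over the 5 conditions with at least 2 LT-HSC libraries, each weighted equally, 10 of 10 passed at an adjusted p of 0.05 in edgeR's quasi-likelihood test, in which Benjamini-Hochberg adjustment covers all genes tested. Among all 18013 genes tested, 17.9% were called higher in LT-HSC. The median log2 fold change of the members was 3.98, against 0.03 over all genes tested. For 4 members at least 1 HPC-1 condition held no count at all, and with these at the detection limit the members' median was 3.45. The count is a description: *Mirg*, *H19*, *Igf2*, *Ndn* and *Plagl1* did not pass the filter on low counts among the HPC-1 libraries alone. A gene that stayed low in every HPC-1 library could be tested only if LT-HSC held more. *Plagl1* reached 3.73 CPM in a PBS KO library of HPC-1. The 5 that also passed within HPC-1 (*Meg3*, *Rian*, *Igf2r*, *Grb10* and *Peg3*) were all called. Without PBS KO LT-HSC 2 the call held for 10 of 10 (18.6% of all genes), and without Ang II KO LT-HSC 2 as well, again for 10 of 10 (18.7%). It also held for 10 of 10 without PBS KO LT-HSC 3 (16.7%). Other choices lost calls: 8 of 10 were called without Ang II intact LT-HSC 1 (*H19* and *Mirg* lost) and 9 without Ang II intact LT-HSC 2 (*Plagl1* lost). The shares over all genes without these 2 libraries are not given here, so the losses are not read as a result about these members. By depth, 9 of 10 were called among libraries under 4 M counts and 4 of 10 among those over 4 M, as described below. With each library left out in turn, the log2 fold changes given per gene below ran over 5.08–5.92 for *Meg3*, 4.28–5.57 for *Rian*, 3.73–5.46 for *Mirg*, 2.00–3.77 for *H19* and 4.25–5.60 for *Igf2*. The other members ran over 2.49–2.66 (*Igf2r*), 5.15–5.78 (*Ndn*), 2.13–3.07 (*Peg3*), 3.36–3.64 (*Grb10*) and 1.64–3.11 (*Plagl1*). In such bulk samples, fewer cells that express a gene and less RNA per cell cannot be told apart.

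**Figure D2:**
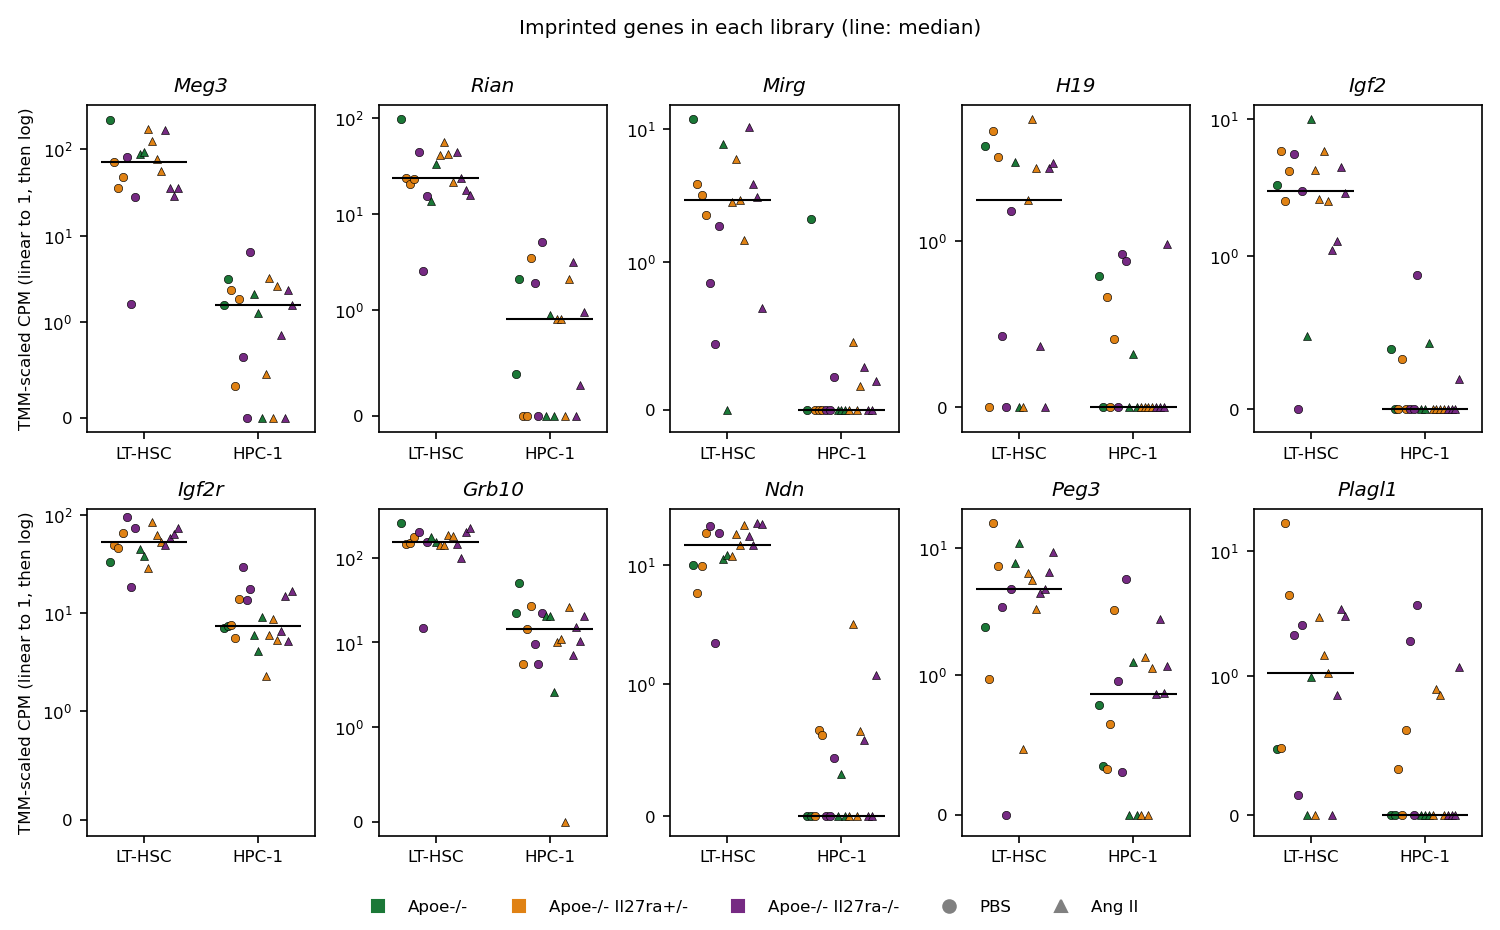
TMM-scaled CPM of each imprinted gene in each library (y axis, linear to 1 CPM and logarithmic above), LT-HSC on the left and HPC-1 on the right of each panel; colour marks the genotype, shape the infusion, and the line is the median of the cell type. For *Meg3*, *Rian*, *Ndn* and *Grb10*, 16 of 17 LT-HSC libraries lie above the highest HPC-1 library.

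*Meg3*, *Rian* and *Mirg* are long noncoding RNAs made from the maternal copy of the Dlk1-Dio3 region, and they lie in this order on the plus strand of chromosome 12 (GRCm38/mm10). *Meg3* (ENSMUSG00000021268, chr12:109541001-109571726) stood after PBS at 221 CPM in the intact library, 70.3, 35.5 and 47.1 in heterozygous and 81.7, 1.62 and 28.2 in KO LT-HSC. After Ang II *Meg3* was 88.5 and 92.9 CPM in intact, 170.4, 124, 76.3 and 56.6 in heterozygous, and 167, 35.8, 28.6 and 36.03 in KO LT-HSC. The level thus varied widely within groups, and the library at 1.62 CPM is PBS KO LT-HSC 2, the one with the progenitor marker profile. In HPC-1 *Meg3* was 1.57 and 3.15 CPM (intact), 2.31, 0.325 and 1.83 (heterozygous) and 0.637, 0 and 6.37 (KO) after PBS. Ang II gave 2.09, 1.27 and 0 CPM (intact), 0.454, 3.19, 0 and 2.58 (heterozygous), and 0.864, 0, 2.31 and 1.57 (KO) in HPC-1. Apart from PBS KO LT-HSC 2, every LT-HSC library exceeded the highest HPC-1 library, and the means over conditions differed 45.9-fold. The log2 fold change was 5.31 ± 0.50 (SE, adjusted p = 7.7e-09, edgeR), and *Meg3* counts summed to 4188 in LT-HSC and 115 in HPC-1.

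*Rian* (ENSMUSG00000097451, chr12:109603940-109661716), whose introns carry C/D box small nucleolar RNAs, followed *Meg3* at a lower level. In LT-HSC after PBS *Rian* held 96.4 CPM in the intact library, 23.8, 20.6 and 22.9 in heterozygous and 43.6, 2.51 and 15.2 in KO libraries. The Ang II libraries held 13.5 and 32.8 CPM in intact, 41.0, 55.7, 42.3 and 21.3 in heterozygous, and 44.3, 23.7, 17.6 and 15.8 in KO LT-HSC. The highest and the lowest LT-HSC library were those of *Meg3*, namely PBS intact and PBS KO LT-HSC 2. In HPC-1 *Rian* ranged from 0 to 5.05 CPM (median 0.908), with 7 of 19 libraries at 0, so 16 of 17 LT-HSC libraries lay above all of HPC-1. The means over conditions differed 22.4-fold, and the log2 fold change was 4.49 ± 0.50 (SE, adjusted p = 6.5e-08, edgeR). The lncRNA gene *Gm26945* overlaps *Rian* and held 167 counts, and how the authors' counting shared reads between overlapping genes is uncertain.

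*Mirg* (ENSMUSG00000097391, chr12:109729764-109749460), the host of a cluster of microRNAs (miRNAs), was low throughout. After PBS it held 11.9 CPM in intact, 3.88, 3.17 and 2.24 in heterozygous and 0.856, 0.442 and 1.86 in KO LT-HSC. After Ang II it held 7.69 and 0 CPM in intact, 2.82, 5.98, 2.93 and 1.46 in heterozygous, and 10.3, 3.88, 3.06 and 0.688 in KO LT-HSC. In HPC-1 only 11 counts were found in all 19 libraries, with 13 of them at 0. Against groups of HPC-1 without a count, *Mirg* in LT-HSC was at least 3.67-fold higher after Ang II in intact and at least 3.61-fold higher after PBS in heterozygous mice, with the limit of 3 counts set per library. The first bound rests on 1 LT-HSC library (7.69 CPM), since the other held no count and overlapped HPC-1. The fitted log2 fold change over conditions, 5.09 ± 0.70 (SE, adjusted p = 3.7e-07, edgeR), depends on the prior count for such genes.

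The 3 host RNAs are shown with the miRNAs that lie inside them because the gene-level counts carry no signal of their own for these miRNAs. RefSeq (GRCm38.p6) places 20 hairpins and 39 mature miRNAs within the spans of 5 members: 26 mature miRNAs in *Mirg*, 6 in *Rian*, 3 in *Meg3*, 2 in *H19* and 2 in *Igf2*. The count table holds 22 miRNA genes inside members, all with 0 counts in the 36 libraries, and 13 small nucleolar RNA genes with 8 counts in total. Libraries of this kind are not size-selected for mature miRNAs, so the levels of the miRNAs were not measured. The 39 mature sequences have 38 different seeds (bases 2 to 8), and the only shared seed, GGUUGCC, is held by 2 miRNAs within introns of *Mirg*. Printed 5′ to 3′ with the seed in capitals, the examples are miR-770 from an exon of *Meg3* (chr12:109563710-109563731 and chr12:109563744-109563765), miR-370-3p from an intron of *Rian* (chr12:109618305-109618326), miR-134-5p and miR-410-3p from exons of *Mirg* (chr12:109734145-109734166 and chr12:109743764-109743784), the pair of shared seed (chr12:109735669-109735692 and chr12:109739132-109739152), all on the plus strand, and, on the minus strand, miR-675 from an exon of *H19* (chr7:142577112-142577133 and chr7:142577078-142577099) and miR-483-3p from an intron of *Igf2* (chr7:142654932-142654952).
mmu-miR-770-5p: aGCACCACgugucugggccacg
mmu-miR-770-3p: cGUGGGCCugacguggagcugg
mmu-miR-370-3p: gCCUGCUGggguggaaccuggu
mmu-miR-134-5p: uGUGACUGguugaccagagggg
mmu-miR-410-3p: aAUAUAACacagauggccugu
mmu-miR-453: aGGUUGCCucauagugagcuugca
mmu-miR-496a-5p: aGGUUGCCcaugguguguuca
mmu-miR-675-5p: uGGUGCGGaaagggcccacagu
mmu-miR-675-3p: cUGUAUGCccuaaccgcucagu
mmu-miR-483-3p: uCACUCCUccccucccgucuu

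**Figure D3:**
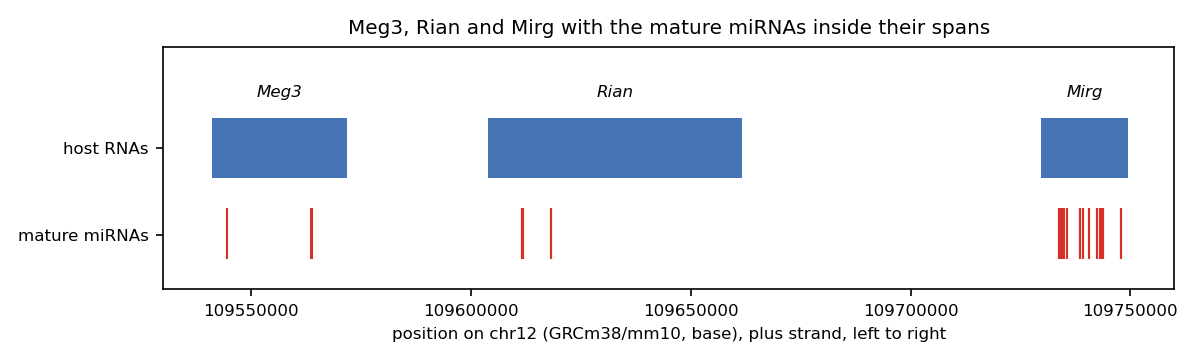
Spans of *Meg3*, *Rian* and *Mirg* (blue bars) and the mature miRNAs inside them (red lines) on chromosome 12 of GRCm38/mm10, with the position in bases on the x axis. Of the mature miRNAs drawn, 26 lie within *Mirg*, 6 within *Rian* and 3 within *Meg3*.

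The members of the IGF axis were higher in LT-HSC as well, and *Grb10* and *Igf2r* varied less between libraries than *Meg3* and *Rian*. *Grb10* (ENSMUSG00000020176, chr11:11930508-12038683, minus strand) encodes an adaptor that inhibits the insulin and IGF1 receptors. After PBS it stood at 252 CPM in intact, 146, 149 and 176 in heterozygous and 197, 14.7 and 154 in KO LT-HSC. After Ang II *Grb10* was 176 and 154 CPM in intact, 139.8, 141, 186 and 179.9 in heterozygous, and 143, 99.6, 198 and 223 in KO LT-HSC. The 2 lowest libraries were PBS KO 2 and Ang II KO 2, the ones with the lowest LT-HSC marker sums. In HPC-1 *Grb10* was 22.0 and 50.7 CPM (intact), 5.62, 14.3 and 26.6 (heterozygous) and 9.56, 5.53 and 22.2 (KO) after PBS. With Ang II, *Grb10* was 20.6, 20.3 and 2.60 CPM (intact), 9.99, 10.9, 0 and 26.3 (heterozygous), and 7.20, 15.3, 10.4 and 20.6 (KO). Only PBS KO LT-HSC 2 lay within the HPC-1 range. The means over conditions differed 11.4-fold, or by a fitted log2 value of 3.46 ± 0.36 (SE, adjusted p = 3.8e-08, edgeR).

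*Igf2r* (ENSMUSG00000023830, chr17:12682406-12769664, minus strand), the mannose-6-phosphate receptor that carries IGF2 to lysosomes, had the smallest standard error of the 10. After PBS it held 33.2 CPM in intact, 49.96, 45.9 and 65.2 in heterozygous and 97.1, 18.6 and 73.4 in KO LT-HSC. Ang II libraries held 45.7 and 38.8 CPM in intact, 29.2, 86.0, 62.2 and 53.0 in heterozygous, and 49.9, 58.2, 64.5 and 73.6 in KO LT-HSC. The lowest library was again PBS KO LT-HSC 2. In HPC-1 after PBS *Igf2r* held 7.07 and 7.35 CPM (intact), 7.60, 5.52 and 13.8 (heterozygous) and 29.6, 13.5 and 17.6 (KO). After Ang II it held 5.98, 4.12 and 9.09 CPM (intact), 2.27, 5.92, 8.68 and 5.32 (heterozygous), and 6.62, 14.9, 5.21 and 16.7 (KO) in HPC-1. *Igf2r* was thus detected in each of the 36 libraries, and 15 of 17 LT-HSC libraries exceeded the highest HPC-1 library. The means differed 5.35-fold, and the log2 fold change was 2.56 ± 0.21 (SE, adjusted p = 6.5e-11, edgeR). The noncoding *Airn* starts inside *Igf2r* on the opposite strand (chr17:12741311-12860136) and silences the paternal *Igf2r* copy in many tissues. It held 531 counts and was higher in LT-HSC by 4.37 ± 0.58 log2 units (SE, adjusted p = 1.5e-07, edgeR). The library kit keeps strand, but the strand setting of the authors' counting is not given in the sources used here, so reads of *Igf2r* and *Airn* in the overlap cannot be told apart.

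*Igf2* and *H19* share a control region on chromosome 7, where *Igf2* (ENSMUSG00000048583, chr7:142650766-142666816, minus strand) encodes the fetal growth factor made from the paternal copy and *H19* (ENSMUSG00000000031, chr7:142575529-142578143, minus strand) a maternal noncoding RNA. Both were near the limit of detection. *Igf2* ranged from 0 to 9.94 CPM in LT-HSC (median 3.01, 218 counts) and from 0 to 0.878 CPM in HPC-1, where 14 of 19 libraries held none of its 8 counts. Of the LT-HSC libraries, 15 of 17 lay above the highest HPC-1 library. *H19* ranged from 0 to 6.49 CPM in LT-HSC (median 1.87), with 5 of 17 libraries at 0, and from 0 to 0.981 CPM in HPC-1, with 12 of 19 at 0. Here 10 of 17 LT-HSC libraries lay above all of HPC-1. In heterozygous mice after Ang II, where no HPC-1 library held a count of either gene, LT-HSC was at least 3.38-fold higher for *Igf2* and at least 2.53-fold higher for *H19*. The *H19* groups overlapped, and without Ang II heterozygous LT-HSC 3 its bound was 1.45-fold. The fitted log2 fold changes over conditions were 4.91 ± 0.70 for *Igf2* (SE, adjusted p = 5.4e-07, edgeR) and 3.13 ± 0.79 for *H19* (adjusted p = 0.0016). The antisense gene *Igf2os*, which overlaps *Igf2*, held 24 counts.

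The remaining members encode proteins made from the paternal copy. *Ndn* (ENSMUSG00000033585, chr7:62346569-62350262, plus strand) encodes necdin, a MAGE family protein that restrains the cell cycle and has been linked to stem cell quiescence. In LT-HSC *Ndn* held 9.97 CPM in intact, 5.82, 9.81 and 18.3 in heterozygous and 20.96, 2.21 and 18.5 in KO libraries after PBS. After Ang II it held 11.1 and 11.9 CPM in intact, 11.8, 17.9, 14.7 and 21.6 in heterozygous, and 17.4, 14.7, 22.3 and 22.0 in KO LT-HSC. The lowest LT-HSC library was PBS KO LT-HSC 2, and the others spanned 5.82–22.3 CPM. In HPC-1 11 of 19 libraries had no *Ndn* count, the others held 0.317 to 3.19 CPM, and the counts summed to 27 against 1066 in LT-HSC. *Ndn* had a 34.9-fold difference of means and a fitted log2 difference of 5.25 ± 0.45 (SE, adjusted p = 2.2e-11, edgeR), the smallest adjusted p of the members.

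*Peg3* (ENSMUSG00000002265, chr7:6703892-6730431, minus strand) and *Plagl1* (ENSMUSG00000019817, chr10:13060504-13131694, plus strand) encode zinc finger proteins. *Peg3* ranged from 0 to 15.8 CPM in LT-HSC (median 4.74) and from 0 to 5.71 CPM in HPC-1 (median 0.864). The cell types overlapped, since 7 of 17 LT-HSC libraries lay above the highest HPC-1 library, and the log2 fold change was 2.30 ± 0.52 (SE, adjusted p = 0.00041, edgeR). *Plagl1* ranged from 0 to 16.8 CPM in LT-HSC (median 1.06) and from 0 to 3.73 CPM in HPC-1 (median 0), and 2 of 17 LT-HSC libraries lay above all of HPC-1. Both of these were heterozygous libraries after PBS, PBS heterozygous LT-HSC 2 (16.8 CPM) and 3 (4.49 CPM). The log2 fold change of *Plagl1* was 2.42 ± 0.79 (SE, adjusted p = 0.014, edgeR), the weakest call of the 10.

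Per kilobase of exon, *Grb10* was the most abundant member in LT-HSC, at 16.98 CPM per kb over the 5 conditions, followed by *Igf2r* (5.98), *Ndn* (3.91), *Meg3* (3.90), *Rian* (1.44), *H19* (0.804), *Igf2* (0.646), *Peg3* (0.454), *Mirg* (0.433) and *Plagl1* (0.322). Neighbours at the top of this order kept it within libraries: *Grb10* exceeded *Igf2r* per kilobase in 16 of 17 LT-HSC libraries, *Igf2r* exceeded *Ndn* in 15 and *Meg3* exceeded *Rian* in 16. *Ndn* exceeded *Meg3* in only 9 of 17, and their means over the 17 libraries, 3.99 ± 1.59 and 4.43 ± 3.30 CPM per kb (SD), did not differ beyond their spread. From *Rian* downwards each gene exceeded the next in 9 or 10 of 17 libraries, so the order among the low members is not resolved. In HPC-1 *Grb10* (1.49 CPM per kb) and *Igf2r* (1.12) also led, and *Ndn* (0.112) and *Meg3* (0.0850) lay close to the low members.

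The difference between LT-HSC and HPC-1 was then examined in each condition. After Ang II, 8 of 10 members were called higher in LT-HSC of intact mice (5.37% of all genes tested), 8 of 10 in heterozygous mice (7.59%) and 7 of 10 in KO mice (7.04%). After PBS, 7 of 10 were called in heterozygous mice (3.84%) and 1 of 10, *Ndn*, in KO mice (0.877%). *Meg3*, *Rian*, *Mirg*, *Igf2*, *Igf2r*, *Ndn* and *Grb10* were the members called in each condition other than PBS KO, joined by *Peg3* in Ang II intact and *H19* in Ang II heterozygous mice. These counts are descriptions too: 4 of the 8 calls in Ang II intact, 3 of 8 in Ang II heterozygous, 2 of 7 in Ang II KO, 2 of 7 in PBS heterozygous and the 1 in PBS KO mice rest on an HPC-1 group with at most 3 counts in all. Groups of LT-HSC and HPC-1 did not overlap for 7, 7, 8, 7 and 2 of 10 members in Ang II intact, Ang II heterozygous, Ang II KO, PBS heterozygous and PBS KO mice. Over all genes tested, 15.3%, 10.7%, 10.8%, 14.5% and 6.41% had every LT-HSC library of the condition above every HPC-1 library. In PBS KO mice without PBS KO LT-HSC 2 this was 7 of 10 members and 20.3% of all genes. *Plagl1* was called in no single condition. Other fits changed the counts. With the replicate number as a block, 4, 7, 7, 6 and 2 of 10 members were called higher in these conditions, in the order just given (2.95%, 8.48%, 7.55%, 4.67% and 1.03% of all genes). Among libraries under 4 M counts, 5, 5, 5, 4 and 4 of 10 were called (4.01%, 3.44%, 2.62%, 1.34% and 1.16%).

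For *Meg3* the condition means differed 81.0-fold in Ang II intact, 68.7-fold in Ang II heterozygous, 56.2-fold in Ang II KO, 34.2-fold in PBS heterozygous and 15.9-fold in PBS KO mice. The same folds for *Grb10* were 11.4, 13.7, 12.4, 10.1 and 9.83, and those for *Igf2r* were 6.60, 10.4, 5.67, 5.98 and 3.12. These folds rest on few libraries. With each library left out in turn, those of *Meg3* ran over 54.0–143 in Ang II intact, 51.5–105.7 in Ang II heterozygous, 28.2–82.3 in Ang II KO and 24.6–47.3 in PBS heterozygous mice. Those of *Grb10* ran over 8.07–14.4, 10.3–23.2, 10.8–15.2, 7.67–15.7 and 6.81–16.2, and those of *Igf2r* over 5.60–8.36, 8.67–12.8, 4.83–6.90, 5.02–8.18 and 2.27–4.21 in the 5 conditions. The *Meg3* fold of 28.2 came without Ang II KO LT-HSC 1, the library at 167 CPM. In PBS KO mice the fold of *Meg3* was 23.5 without PBS KO LT-HSC 2 and 6.39 without PBS KO LT-HSC 1. HPC-1 there has a high library too: PBS KO HPC-1 3 held the most *Meg3* (6.37 CPM), *Rian*, *Igf2*, *Peg3* and *Plagl1* of all HPC-1 libraries, and without it 2 counts of *Meg3* remained in HPC-1, too few for a fold. Of the tests in PBS KO mice with all libraries, *Ndn* alone passed (adjusted p = 0.0082, edgeR), against 2 counts in the HPC-1 group, so the size of its difference is not resolved. In the same edgeR test *Grb10* (3.25, adjusted p = 0.064), *Igf2r* (1.63, adjusted p = 0.088), *Meg3* (3.77, adjusted p = 0.11) and *Rian* (3.00, adjusted p = 0.21) did not pass. The remaining members were not called either: *Mirg* (3.20), *Igf2* (2.96), *H19* (0.17) and *Peg3* (0.16) had log2 values above 0, and *Plagl1* (−0.25) lay below 0. On the same libraries DESeq2 called 4 of 10 members in PBS KO mice (2.39% of all genes), *Ndn*, *Grb10*, *Meg3* and *Igf2r*. Without PBS KO LT-HSC 2, 5 of 10 members were called in PBS KO mice (4.02% of all genes): *Ndn* (adjusted p = 4.8e-05, on the same 2 counts), *Igf2r* (2.10 ± 0.42, adjusted p = 0.0010), *Grb10* (3.81 ± 0.75, adjusted p = 0.0023), *Meg3* (4.39 ± 0.95, adjusted p = 0.0050) and *Rian* (3.57 ± 0.98, adjusted p = 0.026). Without Ang II KO LT-HSC 2 as well, 5 of 10 were called in PBS KO mice (4.56%) and 7 of 10 in Ang II KO mice (8.34%). Without PBS KO LT-HSC 3 instead, no member passed in PBS KO mice (0% of all genes), and *Igf2* was lost in Ang II intact and in PBS heterozygous mice.

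**Figure D4:**
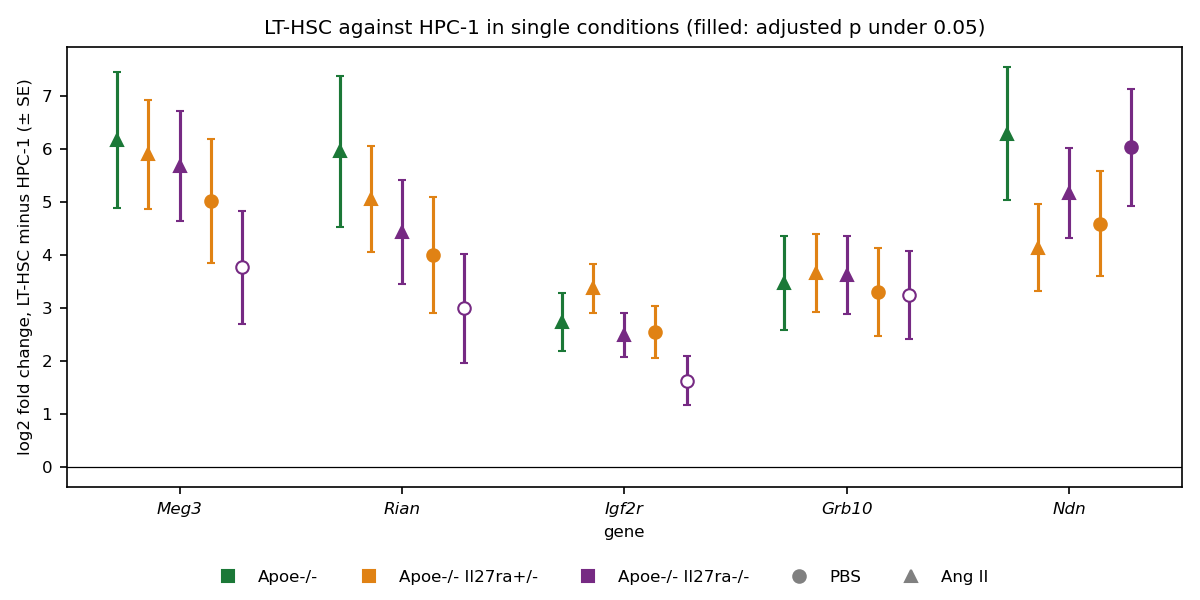
Log2 fold change of LT-HSC minus HPC-1 (y axis, bars are ± 1 SE) for *Meg3*, *Rian*, *Igf2r*, *Grb10* and *Ndn* in the 5 conditions; colour marks the genotype, shape the infusion, and filled symbols have an adjusted p under 0.05. All values lie above 0, and in PBS KO mice only *Ndn* is filled.

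Sequencing depth moved with the level of some members in LT-HSC. In the 10 LT-HSC libraries under 4 M counts *Meg3* had a median of 90.7 CPM (35.5–221), and in the 7 over 4 M a median of 36.03 CPM, or 41.6 CPM (28.2–76.3) in the 6 without PBS KO LT-HSC 2. *Rian* moved the same way, with medians of 36.9 CPM under and 17.6 CPM over 4 M, as did *Mirg* (3.88 and 1.86 CPM). Other members moved in the opposite direction: *Igf2r* had medians of 47.9 and 64.5 CPM, *Ndn* 11.8 and 18.5 CPM, and *Grb10* 147 and 179.9 CPM under and over 4 M. At low levels, *H19* had medians of 0.399 and 3.06 CPM and *Plagl1* 0.674 and 2.58 CPM. In HPC-1, *Meg3* had medians of 0.864 CPM under and 2.20 CPM over 4 M, the opposite order. Among the 25 shallower libraries 9 of 10 members were called higher in LT-HSC (13.1% of all genes), and the log2 difference of *Meg3* was 6.52 ± 0.48 (SE, adjusted p = 9.4e-08, edgeR). Among the 11 deeper libraries, which cover 4 conditions, 4 of 10 were called (8.81%): *Ndn* (4.58), *Rian* (2.88), *Igf2r* (2.28) and *Igf2* (5.03 on the log2 scale). There *Meg3* (3.73 ± 0.95, adjusted p = 0.070) and *Grb10* (2.70 ± 0.80, adjusted p = 0.11) did not pass. Each of these conditions has 1 HPC-1 library over 4 M, and the LT-HSC libraries include PBS KO LT-HSC 2, so these cannot be told apart from depth in this split. The part of depth in these results was not tested.

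Stromal and endothelial cells also express several imprinted genes, so their markers are given beside the members. Of 10 such markers 6 had the higher median in LT-HSC and 3 in HPC-1, and their sum had a median of 124 CPM in LT-HSC and 278 CPM in HPC-1, with *Pecam1* the most abundant. Higher in LT-HSC were *Kdr* (medians 25.9 and 0.579 CPM) and *Col1a2* (8.98 and 0.330 CPM), and higher in HPC-1 were *Pecam1* (72.3 and 181 CPM), *Pdgfrb* (11.7 and 100.2 CPM) and *Cxcl12* (0.838 and 1.05 CPM in LT-HSC and HPC-1). The fibroblast collagen gene *Col3a1* had a median of 0 in both cell types, and *Col1a1* (0.613 and 0.299), *Pdgfra* (0.550 and 0.288), *Lepr* (0.286 and 0) and the endothelial *Cdh5* (0.408 and 0) had medians under 1 CPM in LT-HSC and HPC-1. Of 12 intestinal epithelium markers 3 had the higher median in LT-HSC and 2 in HPC-1. Their sum was highest in the PBS intact library (777 CPM) and both Ang II intact libraries (715 and 729 CPM) of LT-HSC, and it was led by *Muc13*. The sort set its gates by surface markers of hematopoietic stem and progenitor cells. The part of stromal, endothelial or epithelial cells in the members' levels was not tested.

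With the filter on low counts, edgeR called no gene at all for Ang II against PBS at the threshold used. The lack of member calls is thus not a result about the imprinted genes. In LT-HSC 0 of 10 members were called for Ang II minus PBS in heterozygous mice (0% of all 16365 genes tested) and 0 of 10 in KO mice (0%). In HPC-1, where 5 members were tested, 0 of 5 were called in intact (0% of 13199 genes), 0 of 5 in heterozygous (0%) and 0 of 5 in KO mice (0%). Over these 35 member tests edgeR gave 0 at an unadjusted p under 0.05 and a lowest adjusted p of 0.96. DESeq2 and limma-voom also called 0, with 1 unadjusted p under 0.05 in each. Over all genes and the 5 comparisons DESeq2 gave 7 calls and limma-voom 0. The log2 change of *Meg3* was 1.06 ± 0.95 (SE, adjusted p = 1, edgeR) in heterozygous and 0.89 ± 0.96 (SE, adjusted p = 1) in KO LT-HSC. These 2 values were called when the filter on low counts was left out, at 1.06 ± 0.23 (adjusted p = 0.0049) and 0.88 ± 0.23 (adjusted p = 0.049, edgeR). The errors of that fit were much smaller, and the cause was not tested. The Ang II KO libraries of *Meg3* were not alike, with replicate 1 at 167 CPM and the other 3 at 28.6–36.03 CPM, and the PBS KO libraries spanned 1.62–81.7 CPM. Without PBS KO LT-HSC 2, whose level of *Meg3* was the lowest, the log2 change in KO LT-HSC was 0.29 ± 0.78 (adjusted p = 1). In LT-HSC no member was called for Ang II without PBS KO 2, without PBS KO 3 or without Ang II KO 2 (0% of all genes in each). Intact LT-HSC after PBS has 1 library, so Ang II was not tested there.

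Between *Il27ra* genotypes edgeR called no member either. With all libraries edgeR called at most 1.69% of all genes in any of these comparisons, so this is not a result about the members. In LT-HSC after Ang II 0 of 10 were called for KO minus intact (1.69% of all genes), 0 of 10 for heterozygous minus intact (0.831%) and 0 of 10 for KO minus heterozygous (0%), and after PBS 0 of 10 for KO minus heterozygous (0%). In HPC-1 after Ang II 0 of 5 were called for KO minus intact (0%), heterozygous minus intact (0%) and KO minus heterozygous (0%). After PBS, HPC-1 gave 0 of 5 for KO minus intact (0.0152%), heterozygous minus intact (0%) and KO minus heterozygous (0%). Comparisons with the same group share its libraries and are not independent. Summed over the 10 comparisons, all genes gave 415 calls in edgeR, 1264 in DESeq2 and 234 in limma-voom. Over the 70 member tests the lowest adjusted p was 0.55 and 2 had an unadjusted p under 0.05 in edgeR. DESeq2 and limma-voom called 0 of these with 2 unadjusted p under 0.05 each. Both edgeR values belong to *Igf2r* in HPC-1 after PBS, where all 3 KO libraries (29.6, 13.5 and 17.6 CPM) exceeded both intact ones (7.07 and 7.35 CPM). The log2 fold changes there were 1.48 ± 0.66 for KO minus intact (SE, adjusted p = 0.71, edgeR) and 1.16 ± 0.56 for KO minus heterozygous (adjusted p = 1). KO and heterozygous HPC-1 overlapped, as 1 heterozygous library held 13.8 CPM. Leaving out PBS KO LT-HSC 2, PBS KO LT-HSC 3 or Ang II KO LT-HSC 2 also gave no call of a member between genotypes in LT-HSC. For KO minus intact after Ang II, 2.45%, 1.11% and 2.09% of all genes were called in these settings. After Ang II the same differences of *Igf2r* in HPC-1 were 0.75 ± 0.54 (adjusted p = 0.95) and 0.97 ± 0.50 (adjusted p = 1).

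Whether the cell type difference itself varied was tested by interactions. Neither cell type by agent nor cell type by genotype (KO against heterozygous) gave a call, with 0 of 10 members (0% of all genes) in each. Agent by genotype gave 0 of 10 members in LT-HSC (0%) and 0 of 10 in HPC-1 (0%). For the 5 members that do not pass the filter within HPC-1 and are mostly at 0 there, the lack of a call in HPC-1 carries no weight. Over all genes the 4 interactions gave 0 calls in edgeR, 8 in DESeq2 and 0 in limma-voom. Over the 40 member tests edgeR gave 1 unadjusted p under 0.05, DESeq2 called 0 with 0 and limma-voom called 0 with 1 unadjusted p under 0.05. That value was *H19* in cell type by genotype, −3.37 ± 1.60 (SE, adjusted p = 1, edgeR), a gene whose libraries are often at 0. So the smaller folds of *Meg3* in PBS KO mice given above are not shown to differ from those in other conditions: its interactions were 1.40 ± 1.12 for cell type by agent and −0.74 ± 1.12 for cell type by genotype (adjusted p = 1 in both). With PBS KO LT-HSC 2 left out they were 1.09 ± 0.96 and −0.43 ± 0.96 (adjusted p = 1 in both). No interaction of a member was called when any of the 3 libraries that stood apart was left out (at most 0.0222% of all genes).

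Other imprinted genes were taken from a list of 66, of which 62 were in the table and 50 passed the filter. Among these 50, 23 (46%) were higher and 7 (14%) lower in LT-HSC over the 5 conditions, and 20 were not called. Over all genes tested, 17.9% were higher and 18.5% lower. These counts are descriptions too. Called genes such as *Asb4* and *Phlda2* had a median of 0 in HPC-1. A gene that stayed low in every HPC-1 library could be tested only if LT-HSC held more. *Ascl2*, also with a median of 0 in HPC-1, was tested with at most 11.3 CPM in HPC-1 and at most 0.862 CPM in LT-HSC. Leaving out PBS KO LT-HSC 3, 20 were higher and 7 lower, with *Rtl1* and *Zdbf2* among those lost. Their median log2 fold change was 0.47, or 0.43 with 13 genes at the detection limit, against 3.98 for the members. In the Dlk1-Dio3 region all 3 tested neighbours were higher: *Dlk1*, a Notch-related ligand from the paternal copy (3.45), *Begain* (2.05) and *Rtl1* (1.91 on the log2 scale). *Dlk1* had medians of 5.44 CPM in LT-HSC and 0.299 CPM in HPC-1. *Rtl1* overlapped between cell types, as 1 HPC-1 library held 31.2 CPM. Of 9 tested genes around *Igf2*, *H19* and *Kcnq1*, 4 were higher, among them the cell cycle inhibitor *Cdkn1c* (3.07 ± 0.50 SE, adjusted p = 1.0e-05, edgeR), *Phlda2* (3.33), *Cd81* (0.70) and *Tspan32* (0.48), and 2 were lower, *Osbpl5* (−1.21) and *Nap1l4* (−0.25). *Slc22a18*, *Ascl2* and *Tssc4* were not called. *Cdkn1c* had medians of 17.1 CPM in LT-HSC and 0.813 CPM in HPC-1.

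Near *Igf2r*, the solute carrier gene *Slc22a3* was lower in LT-HSC (−0.46 on the log2 scale) while *Airn* was higher, so 1 of 3 tested genes moved each way, and *Slc22a2* was not called. Near *Ndn*, *Mkrn3* (1.59) and *Peg12* (1.00) were higher and *Atp10a* was lower (−0.73), while *Ube3a* was not called, of 4 tested. The neighbours of *Peg3* in the table, *Usp29* and *Zim1*, had 26 and 14 counts and were not tested, and neither *Cobl* nor *Ddc* near *Grb10* was called. Elsewhere, 6 of 7 tested genes of the Peg10-Sgce region were higher, with *Asb4* (4.30), *Peg10* (2.63) and *Sgce* (2.49) the largest fitted values, ahead of *Ppp1r9a*. In 1 condition a group held no count of *Asb4*, so its value depends on the prior count and its place is not resolved. The values of *Airn* and *Phlda2* depend on the prior count in the same way. *Sgce* had medians of 14.9 CPM in LT-HSC and 3.15 CPM in HPC-1. Of 17 tested single loci 7 were higher and 3 lower, and by size of change *Htr2a* (2.54), *Zdbf2* (2.11) and *Blcap* (0.67) were higher and *Gatm* (−0.99) was lower, while the regions of *Mest* and *Gnas* gave no call. Imprinted genes outside the 10 members thus moved in both directions between the cell types.

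Promoters are shown for *Meg3* and *Grb10* because both were among the most abundant members in LT-HSC and lie in regions known for methylated control elements. RefSeq windows of 300 bases around gene starts (GRCm38.p6) were present for 9 members, 14 windows in all. They were searched on both strands for TGCCGC, the letters bound by ZFP57 when methylated (reverse complement GCGGCA). The letters occur in 4 of the 14 windows, of *Meg3*, *Grb10*, *Igf2* and *Plagl1*, and in 3813 of all 32851 windows (11.6%). A match is a description of the sequence and not of binding or methylation, neither of which was measured. *Meg3* and *Grb10* have 2 windows each, and the other of each, chr12:109545148-109545447 and chr11:12027922-12028221, holds no match. The windows with the match are chr12:109540746-109541045 on the plus strand for *Meg3* and chr11:12037371-12037670 on the minus strand for *Grb10*, both printed 5′ to 3′ along the gene's strand with the match in capitals.
Meg3 promoter: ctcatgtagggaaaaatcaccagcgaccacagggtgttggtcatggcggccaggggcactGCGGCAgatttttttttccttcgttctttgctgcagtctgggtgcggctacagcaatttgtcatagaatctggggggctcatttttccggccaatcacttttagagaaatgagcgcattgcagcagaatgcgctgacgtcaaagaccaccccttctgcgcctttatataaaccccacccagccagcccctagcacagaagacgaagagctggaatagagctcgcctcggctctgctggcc
Grb10 promoter: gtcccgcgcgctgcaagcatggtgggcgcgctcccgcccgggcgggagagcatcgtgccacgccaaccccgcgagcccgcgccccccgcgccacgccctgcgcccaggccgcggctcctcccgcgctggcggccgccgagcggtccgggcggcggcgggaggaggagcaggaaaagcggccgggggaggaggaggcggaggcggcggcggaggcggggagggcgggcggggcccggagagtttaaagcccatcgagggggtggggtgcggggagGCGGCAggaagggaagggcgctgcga

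Genes with patterns most like the members were sought by Pearson correlation of log2 CPM (prior count 2) over the 36 libraries. These come from 2 cell types, with PBS KO LT-HSC 2 among HPC-1 on its marker sums, so that genes of LT-HSC as a class come first. *Meg3* was nearest to *Fmn2* (r = 0.95, Spearman rho 0.90), *Rian* (r = 0.95) and *Ehd3* (r = 0.95), and *Ndn* to *Tcf15* (r = 0.95), *Mycn* (r = 0.95) and *Tmem246* (r = 0.95). *Igf2r* was nearest to *Obsl1* (r = 0.93), *Car2* (r = 0.92) and *Gucy1a1* (r = 0.91), and *Grb10* to *Plxna1* (r = 0.94), *Robo3* (r = 0.93) and *Clca3a1* (r = 0.92). *Rian* was nearest to *Meg3*, *Gbp9* (r = 0.94) and *Setbp1* (r = 0.94). For *Mirg* the nearest gene was *Gm26945* (r = 0.88), for *H19* *Lonrf2* (r = 0.81), for *Igf2* *Gm13111* (r = 0.93), for *Peg3* *Sh3rf3* (r = 0.85) and for *Plagl1* *Rragd* (r = 0.82). The points share depth and cell type, and the values describe these libraries.

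Within LT-HSC alone, *Meg3* and *Rian* rose and fell together. Over the 17 libraries their r was 0.91 (rho 0.79), and 0.74 without the 2 libraries farthest from the median of *Meg3*. Without PBS KO LT-HSC 2 it was 0.81 (n = 16), and among the 10 libraries under 4 M counts 0.72. *Igf2r* and *Ndn* had r = 0.80 (rho 0.77, n = 17), and 0.63 in the 16 libraries without PBS KO LT-HSC 2. By contrast, *Meg3* and *Igf2r* had r = −0.49 (rho −0.47) and *Meg3* and *Plagl1* r = −0.65 (rho −0.68) in those 16 libraries, where depth also moved with *Meg3*. These values turn on PBS KO LT-HSC 2: over all 17 libraries *Meg3* had r = 0.28 (rho −0.23) with *Igf2r*, 0.49 (rho −0.16) with *Ndn*, 0.77 (rho 0.07) with *Grb10* and −0.16 (rho −0.49) with *Plagl1*. *Mirg* followed the other RNAs of its region less closely, with r = 0.51 (0.26 without the 2 farthest libraries) to *Meg3* and 0.46 (0.08) to *Rian*. Over all 17 LT-HSC libraries the gene nearest to *Meg3* was *Lcp2* (r = 0.95, and 0.88 in the 16) and that nearest to *Grb10* was *Tgm2* (r = 0.98, and 0.86 without the 2 farthest libraries).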

How the data were processed

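The authors made stranded low-input total RNA libraries and, per their methods, aligned reads with STAR to mm10 and estimated RSEM expected counts per gene; the submitters' processing notes name Bowtie2, DESeq2 and RSEM 1.2.31. The deposited expected counts are whole numbers without normalization, and 0 columns were unmatched to a sample. The strand setting and Ensembl release are not given in the sources used here. Symbols matched 37570 identifiers with 99.63% of the counts. No read was counted for 8205 genes.

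Members and lists were chosen with earlier results of these data known. In R 4.3.3, edgeR 4.0.16 (filterByExpr, TMM, robust quasi-likelihood test) fitted all 12 groups in 1 model for cell type comparisons and interactions (18013 genes), and each cell type on its own (6 groups) for Ang II and genotype comparisons (16365 genes in LT-HSC, 13199 in HPC-1). The mean over conditions leaves out PBS intact mice. Benjamini-Hochberg adjustment at 0.05 covered all genes tested. The SE given with edgeR values was derived from the test, as the absolute log2 fold change divided by the square root of its F statistic. The code was tested on simulated counts. No library was dropped, and no 2 libraries of a group agreed within sampling noise. Alternatives were DESeq2 1.42.0, limma-voom (limma 3.58.1) with sample weights, upper-quartile scaling, other filters, fewer libraries or groups, a replicate block and a covariate of Y-linked genes. The latter stands for gender, which the study's own model included and the fits here could not take from the labels. With this covariate the number of member calls was the same (10 over conditions, 31 in single conditions). Figures used Python 3.11.15.

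All 10 members are named, with all cluster mates that passed the filter and, of other imprinted genes, up to 8 called ones with the largest change. For each member the 3 genes of highest correlation were found, and for members of low level the nearest is given. Genes named from a marker list illustrate that list. Genomic positions are those of GRCm38/mm10, and sequences come from RefSeq (GRCm38.p6).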

Additional observations from a re-analysis of the deposited data

Results flagged for a closer look

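Of 38 sets of 4 libraries tested for a library far from the rest, 5 held such a value. For even spread, chance gives about 1 in 20, which does not apply to the 3 below whose other libraries are all at 0, where any count is picked out. All 5 lie in KO mice after Ang II. *Meg3* was 166.6 CPM in LT-HSC replicate 1, and the other 3 libraries lay at 28.6–36.03 CPM. In HPC-1, replicate 4 held 0.981 CPM of *H19* (5 counts), 0.196 CPM of *Igf2* (1 count) and 1.18 CPM of *Plagl1* (6 counts), and the other 3 libraries held no count of these genes. Replicate 4 is also the deepest of its group. HPC-1 replicate 2 held 2.78 CPM of *Peg3*, against 0.864–1.18 CPM in the others.

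The PBS intact library of LT-HSC, which enters no test, had the highest level of all 36 libraries for *Meg3* (221 CPM), *Rian* (96.4 CPM), *Mirg* (11.9 CPM) and *Grb10* (252 CPM). It is also the library with the fewest counts (1980283), and its *Il27ra* level lay in the KO range. It has no replicate, so its place was not tested.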

How the results depend on the processing

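Under 49 alternatives, 36 of which leave out 1 replicate each, the 486 log2 fold changes of members between LT-HSC and HPC-1 over conditions were all above 0, and 476 kept their side of the threshold, while 10 lost the call. The lowest and highest values were 3.73 and 6.52 for *Meg3*, 2.88 and 6.25 for *Rian*, 2.28 and 2.76 for *Igf2r*, 2.70 and 3.97 for *Grb10*, 4.04 and 5.83 for *Ndn*, 2.17 and 5.46 for *Mirg*, 2.37 and 5.60 for *Igf2*, 1.201 and 3.77 for *H19*, 1.15 and 3.07 for *Peg3* and 1.07 and 3.11 for *Plagl1*. Of the members, 6 were called with a mean of at least 10 counts as the filter (the other 4 were not tested) and 4 among the 11 libraries over 4 M counts, a split chosen after seeing the data, where single conditions gave 0 calls in place of 31 and the wider imprinted list 13 in place of 30. Each condition has 1 HPC-1 library over 4 M, and no gene was called in a single condition there, so this split does not test single conditions. Without a filter on low counts Ang II minus PBS gave 2 calls, both of *Meg3*, and the cause was not tested.

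Leaving out each replicate gave 8–10 member calls over conditions, 26–35 in single conditions, 0–0 for Ang II, genotype and interactions, and 26–30 in the wider list. The 8 came without Ang II intact LT-HSC 1, when *H19* and *Mirg* held no count in the 1 library left there, which was assumed to vary like the other groups.

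Replicate numbers were not taken to pair the libraries: of pairs with the same number, 7 of 16 of LT-HSC and HPC-1 of a condition had a correlation over 0.1 (−0.20 to 0.32), as did 7 of 41 within HPC-1 (highest 0.48) and 8 of 27 within LT-HSC (highest 0.29). With the replicate number as a block, 10 members were called over conditions, 26 in single conditions (4 in place of 8 in Ang II intact mice), 0 for Ang II, 0 for genotype, 0 for interactions and 28 in the wider list.

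Counts of 0 to 3 in many libraries limit *Mirg*, *H19*, *Igf2* and *Plagl1*. The labels give no batch or gender, depth differed between replicates of a group, and intact LT-HSC after PBS rests on 1 library.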
